A study of Gallus gallus with 6 samples.

Results

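The genes described here are 10 genes of glucose uptake and glycolysis, the pathway that splits glucose into pyruvate, in the chicken macrophage-like line HD11. They were taken by their symbol from 14903 genes in the deposited tables, and all 10 symbols were present. They are the glucose transporter genes SLC2A1 and SLC2A12, the hexokinase genes HK1 and HK2, the phosphofructokinase gene PFKP, the regulatory enzyme genes PFKFB3 and PFKFB4, and the lower glycolysis genes GAPDH, PGK1 and LDHA. Transcripts were measured by sequencing read pairs from total RNA. The 3 mock libraries come from untreated cells, and the other 3 from cells stimulated for 3 h at 100 ng/mL with recombinant IFN-beta (interferon beta) of the chicken, an antiviral cytokine. All 6 libraries carry the genotype label wild type and 1 batch label, both groups come from the same single cell line, and no time was recorded for the mock cells. HD11 cells were transformed by a retrovirus that carries v-myc, so they are a dividing transformed line rather than primary macrophages. Totals were 15665594 to 15885227 counts per library. The summed level of 10 macrophage markers, among them CSF1R and SPI1, was 3378 to 3481 TPM in mock and 3611 to 3698 TPM in IFN-beta. Its largest parts were CTSS (means of 1604 TPM in mock and 1513 TPM in IFN-beta) and CD74 (722 and 892 TPM). In the test described below, SPI1, CD74, TLR4 and CYBB were called higher in IFN-beta, and CSF1R, MMR1L4 and MERTK lower. LYZ, the lysozyme gene, was nearly absent, its reads numbering 2 over the mock libraries and 6 over the others. Summed markers of T cells, erythroid cells and fibroblasts stayed at or under 1.71 TPM in every library, those of epithelium and hepatocytes at or under 2.56 TPM and those of B cells at or under 8.54 TPM. The thrombocyte list stood at 13.7 to 16.1 TPM in mock and 6.49 to 9.87 TPM in IFN-beta, with TUBB1 at 12.1 to 14.4 and 6.49 to 7.55 TPM and most of the rest from GP1BB, and its part in the results below was not tested. The treatment was visible in the antiviral gene OASL, which rose 169-fold.

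Glucose enters cells through transporters of the SLC2A family and is trapped by a hexokinase as a phosphorylated sugar. Phosphofructokinase then commits it to glycolysis, under the control of PFKFB enzymes, which make and break the sugar bisphosphate that activates phosphofructokinase. The lower steps yield ATP and pyruvate, and lactate dehydrogenase turns pyruvate into lactate and restores the cofactor that the GAPDH step uses. Macrophages of mammals are known to raise glycolysis when microbial products activate them.

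HK2 rose and HK1 fell, so that HK2 overtook HK1 in TPM, which corrects for gene length, but not in reads. The transporter gene SLC2A12 fell 5.50-fold, while PFKFB3 and PFKP rose by smaller amounts. PFKFB3 shared reads with an overlapping gene, RBM17, which also rose. SLC2A1, GAPDH, PGK1 and LDHA did not pass the test. In these bulk libraries fewer cells that express a gene and less of its RNA per cell cannot be told apart. Changes were tested with edgeR's quasi-likelihood test on the counts of all genes, and a gene was called when its Benjamini-Hochberg adjusted p was under 0.05. Of the 10 genes 9 passed the filter on low counts and PFKFB4 did not. Of these 9, 5 were called, against 46.7% of all genes tested. The 3 that rose stand against 24.3% of all genes called higher, and the 2 that fell against 22.4% called lower. The same 5 had every mock library on one side of every IFN-beta library in scaled counts, against 53.9% of all genes. The share of these genes called was therefore near the share of all genes. In a test against a change of 1.5-fold, 2 of the 9 passed, SLC2A12 and HK2, against 5.97% of all genes.

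**Figure D1:**
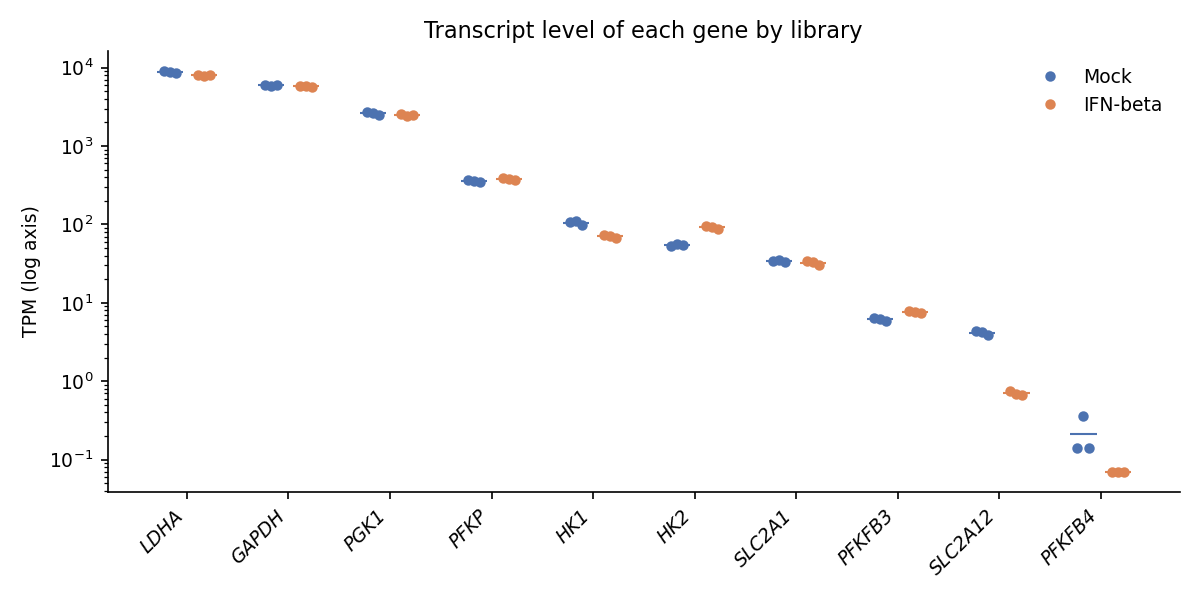
Transcript level in TPM on a log axis for each of the 10 genes, with 1 point per library (3 mock, 3 IFN-beta) and a line at the group mean. HK1 and HK2 change places between the groups, SLC2A12 drops, and LDHA, GAPDH and PGK1 stay at the top of the scale.

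Levels are given in TPM, which corrects for gene length and allows genes to be set beside each other. TPM sums to the same total in every library. On log2(TPM + 1) the median was -0.10 in IFN-beta relative to mock over the 10156 genes with a mean of at least 1 TPM. With no filter it was -0.05, while with edgeR's TMM scaling it was -0.001. Small differences in TPM therefore have to be read against that shift, and fold changes below are from the TMM-scaled fit unless another scale is named. In mock the order from the highest level was LDHA, GAPDH, PGK1, PFKP, HK1, HK2, SLC2A1, PFKFB3, SLC2A12 and PFKFB4. In IFN-beta the order was the same but for HK2, which stood above HK1. No neighbours in either order overlapped between their libraries. LDHA ranked 2 among all 14903 genes by its mean TPM, GAPDH 14 and PGK1 69. These 3 genes made up 96.9% ± 0.0648 (SD, n = 3) of the summed TPM of the 10 genes in mock and 96.5% ± 0.101 in IFN-beta. The 10 genes together held 1.80% ± 0.0348 of all TPM in mock and 1.68% ± 0.0184 in IFN-beta.

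Of the transporters, SLC2A12, which encodes GLUT12, was at 4.43, 4.24 and 3.84 TPM in the mock libraries and at 0.75, 0.68 and 0.67 TPM in the IFN-beta libraries. The groups were far apart, and the 3 IFN-beta libraries lay close together. The counts behind these levels were 214, 206 and 192 reads in mock and 37, 34 and 34 in IFN-beta. The log2 fold change was -2.46 (SE 0.12), a level 5.50-fold lower with a 95% interval of 4.60 to 6.57, and the edgeR adjusted p was 1.8e-12. Its fold change ranked 7 from the lowest among the 11091 genes tested. On log2(TPM + 1), which understates changes of low genes, the value was -1.60. Its neighbour in the reference gene order, SGK1, a serum and glucocorticoid induced kinase, fell, with a log2 fold change of -0.43, and the neighbour on the other side, TBPL1, a relative of the TATA-binding protein, rose by 0.20 (both named for their position).

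SLC2A1 encodes GLUT1, the basal glucose transporter of most cells. It was at 34.07, 35.60 and 32.83 TPM in mock and 34.51, 33.13 and 29.96 TPM in IFN-beta, and the groups overlapped. Its fold of IFN-beta over mock was 1.03, with an interval of 0.960 to 1.11, and it did not pass (edgeR adjusted p 0.487). Its direction turned with the scaling, to a log2 fold change of -0.05 under library size alone and -0.07 on log2(TPM + 1). In the reference SLC2A1 overlaps ZMYND12, which had a log2 fold change of -0.61. SLC2A12 and SLC2A1 were minor parts of the SLC2A transcripts, and SLC2A12 went from 1.77% ± 0.114 to 0.274% ± 0.0131 of the TPM summed over 11 SLC2A genes. SLC2A1 made up 14.5% ± 0.328 of that sum in mock and 12.7% ± 0.726 in IFN-beta. The largest part was SLC2A14, with 40.4% ± 0.611 and 40.3% ± 0.820, whose identifier carries SLC2A3 and GLUT3 as synonyms in the reference. While its share held, SLC2A14 (named for that share) was called higher, with a log2 fold change of 0.22 (edgeR adjusted p 0.000141). Its level went from 95.5 ± 1.32 to 103 ± 1.85 TPM, with no overlap. The sum itself was 236 ± 4.25 TPM in mock and 256 ± 3.97 TPM in IFN-beta (n = 3 each), higher in every IFN-beta library than in any mock library.

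Among the other sugar transporters and their regulators 10 of 15 genes found were tested, of which 2 rose, 4 fell and 4 did not pass, with a median log2 fold change of 0.001 beside -0.001 over all genes tested. Counts in this list and in those below stand against 24.3% of all genes called higher and 22.4% called lower. SLC2A6, which encodes the transporter GLUT6, known in mammals from lysosomes of activated macrophages, rose from 50.2 ± 2.07 to 74.5 ± 1.91 TPM (log2 fold change 0.68, edgeR adjusted p 7.1e-10). SLC2A5, which encodes the fructose transporter GLUT5, fell from 9.43 ± 0.293 to 6.12 ± 0.170 TPM (-0.58, adjusted p 4.7e-06 by edgeR). ARRDC3 and TXNIP, arrestin-related genes, also fell. TXNIP, whose product is known in mammals to draw GLUT1 from the cell surface, went from 84.7 ± 4.84 to 60.7 ± 1.42 TPM (-0.37), and ARRDC3 from 16.2 ± 0.770 to 7.37 ± 0.362 TPM (-1.02).

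**Figure D2:**
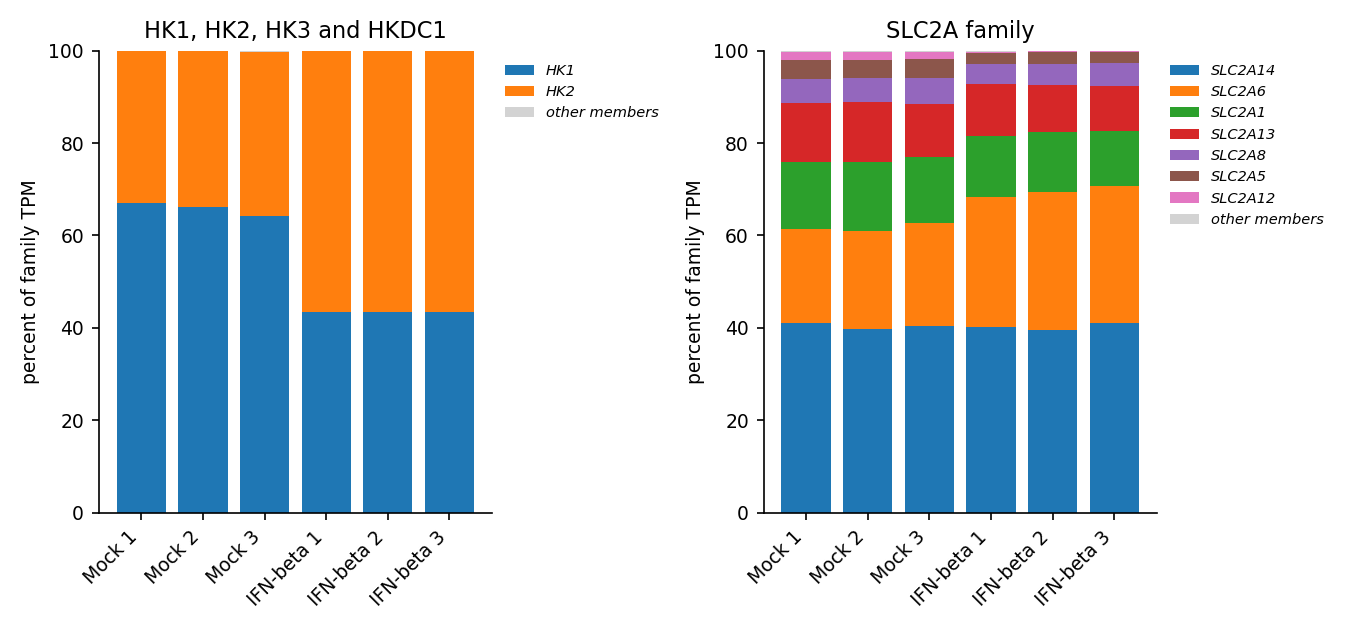
Share of each gene in the summed TPM of its family, in percent, for HK1, HK2, HK3 and HKDC1 and for the SLC2A transporters, with 1 bar per library. HK2 holds 32.9 to 35.6% of the sum of its group in mock and 56.5% in each IFN-beta library, while the share of SLC2A14 stays between 39.5 and 41.1% in all 6 libraries.

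The hexokinases showed the clearest exchange. HK2, the inducible hexokinase of muscle, fat and many tumours, was at 53.01, 55.66 and 54.68 TPM in mock and at 96.16, 93.51 and 87.69 TPM in IFN-beta. Each IFN-beta library was well above each mock library. The log2 fold change was 0.88 (SE 0.04), a level 1.84-fold higher with an interval of 1.73 to 1.95, and the edgeR adjusted p was 4.4e-13. Among 11091 genes tested its fold change ranked 407 from the highest. In the reference HK2 overlaps GMCL1, which was not called (-0.02).

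HK1, the hexokinase that most tissues use, moved the other way. It was at 107.92, 109.25 and 98.86 TPM in mock and at 73.89, 71.66 and 67.37 TPM in IFN-beta, again with no overlap. Its log2 fold change was -0.44 (SE 0.04), a level 1.35-fold lower with an interval of 1.28 to 1.43 (edgeR adjusted p 4.7e-09). Counts of HK1 were not whole, so some of its reads may have been divided with another gene, which was not tested. The ratio of HK2 to HK1 in TPM was 0.491, 0.509 and 0.553 in mock and 1.301, 1.305 and 1.302 in IFN-beta. In reads, without correction for gene length, HK1 stayed above HK2 in every IFN-beta library (3263, 3261 and 3117 against 2923, 2905 and 2760). The change of order thus rests on that correction. The TPM summed over HK1, HK2, HK3 and HKDC1 was 160 ± 5.71 in mock and 164 ± 7.67 in IFN-beta, with overlapping libraries. On the TPM scale the sums differed by less than the spread between libraries. That scale carries the shift of the median gene (-0.10), and whether the sum differs under TMM scaling was not tested. The share of HK2 in that sum went from 34.1% ± 1.36 to 56.5% ± 0.0142, and that of HK1 from 65.8% ± 1.39 to 43.4% ± 0.0550. HK3 and HKDC1 were near 0, with 31 and 9 reads over the 6 libraries, and were not tested.

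PFKP, the platelet-type subunit of phosphofructokinase, was at 364.3, 355.5 and 347.3 TPM in mock and 389.7, 377.1 and 373.8 TPM in IFN-beta. The groups did not overlap, but the gap between the highest mock and the lowest IFN-beta library was narrow. The log2 fold change was 0.21 (SE 0.03), a level 1.16-fold higher with an interval of 1.11 to 1.21 (edgeR adjusted p 1.7e-05). The value was 0.12 under library size alone and 0.10 on log2(TPM + 1), still called in both. PFKP made up 93.1% ± 0.148 of the TPM summed over the 3 phosphofructokinase genes in mock and 94.2% ± 0.115 in IFN-beta. PFKL, the liver-type subunit gene, was at 26.2 ± 0.436 and 23.0 ± 1.001 TPM and was not called, and PFKM, the muscle-type subunit gene, had 25 reads in mock and 30 in IFN-beta and was not tested.

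PFKFB3 encodes the isoform known in mammals for its high kinase activity, which favours glycolysis. Its level was 6.41, 6.24 and 5.84 TPM in mock and 7.79, 7.60 and 7.46 TPM in IFN-beta, with no overlap. The log2 fold change was 0.48 (SE 0.07), a level 1.39-fold higher with an interval of 1.26 to 1.54 (edgeR adjusted p 9.4e-06), and it was 0.27 on log2(TPM + 1). In the reference annotation PFKFB3 overlaps RBM17, a splicing factor gene named here for its position, which was at 45.2 TPM in mock and 54.3 TPM in IFN-beta and rose 1.30-fold. Counts of both genes were not whole, with fractions that complement each other in every library. In mock replicate 1 they were 321.08 for PFKFB3 and 1326.92 for RBM17, and in IFN-beta replicate 1 404.05 and 1539.95. Some reads were therefore divided between PFKFB3 and RBM17. The strand setting of the counting is not given in the sources used here, so reads of the shared stretch cannot be told apart. How much they add to the rise of PFKFB3 was not tested.

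The gene listed as PFKFB4 had 2, 5 and 2 reads in mock and 1 read in each IFN-beta library, or 0.14, 0.36 and 0.14 TPM and 0.07 TPM. The ratio of mock to IFN-beta, from 9 and 3 reads, was 3.03 with an exact binomial interval of 0.755 to 17.4 at 95%. Both were scaled by total counts and not by TMM, and the interval covers counting error only. With no filter on low counts it was not called (edgeR adjusted p 0.254). The reference gives this identifier the name PFKFB1, and it gives the name PFKFB4 to the gene listed as PFKFB4L in the deposited tables, which was looked at after the values were seen. PFKFB4L was at 94.3 TPM in mock and 76.2 TPM in IFN-beta and fell, with a log2 fold change of -0.23 (SE 0.04, edgeR adjusted p 5.5e-05). PFKFB4L held 81.9% ± 0.179 of the TPM summed over the 4 PFKFB genes in mock and 79.4% ± 0.646 in IFN-beta, and PFKFB3 held 5.35% ± 0.0999 and 7.94% ± 0.108. The summed TPM of the 4 genes was 115 ± 3.87 in mock and 96.0 ± 1.74 in IFN-beta, with no overlap. That scale carries the shift of the median gene (-0.10 on log2(TPM + 1)), and whether this sum differs under TMM scaling was not tested. PFKFB2, the heart-type isoform gene, was at 14.5 ± 0.347 and 12.1 ± 0.486 TPM and was called lower (log2 fold change -0.15, edgeR adjusted p 0.0236). It was not called by DESeq2 (adjusted p 0.0922), nor in edgeR without mock replicate 1 (adjusted p 0.0706) or IFN-beta replicate 1 (0.0649) or 3 (0.0956).

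**Figure D3:**
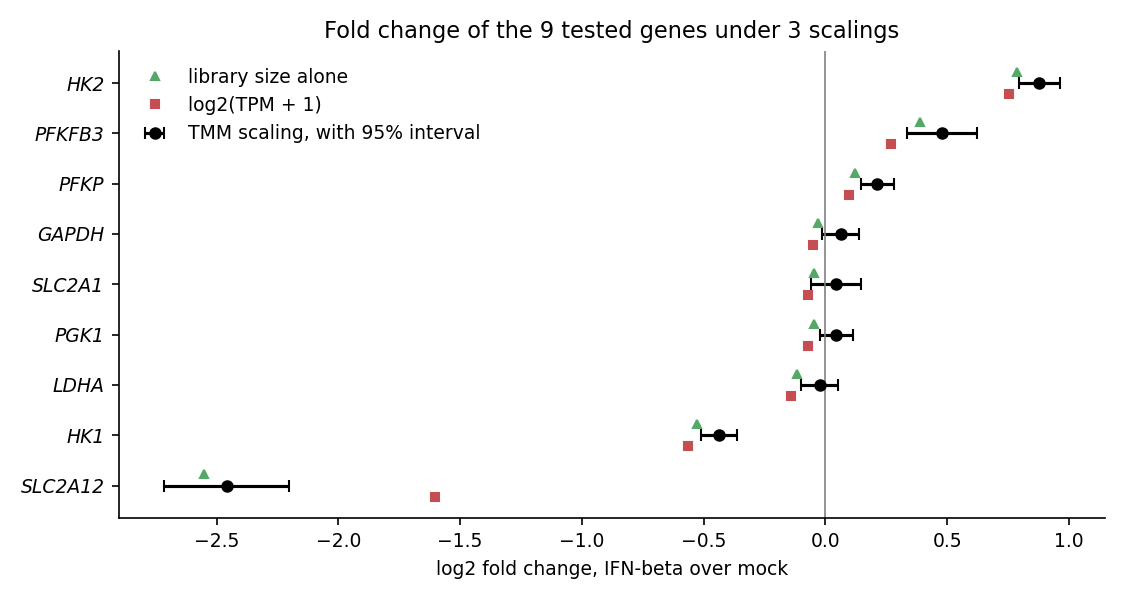
Log2 fold change of IFN-beta over mock for the 9 tested genes. Black points are the TMM-scaled fit with its 95% interval, triangles use library size alone and squares log2(TPM + 1). HK2, PFKFB3 and PFKP stay above 0 and HK1 and SLC2A12 below 0 on all 3 scales, while GAPDH, SLC2A1 and PGK1 lie on both sides of 0.

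In the lower part of the pathway GAPDH, whose enzyme reduces the cofactor NAD, was at 5968, 5891 and 6088 TPM in mock and 5780, 5810 and 5725 TPM in IFN-beta. PGK1, which makes the first ATP of the pathway, was at 2703, 2636 and 2524 TPM in mock and 2561, 2451 and 2476 TPM in IFN-beta. In TPM the IFN-beta libraries of GAPDH were all below the mock libraries, and those of PGK1 overlapped mock. On log2(TPM + 1) the fall of GAPDH (-0.05) was smaller than that of the median gene above a mean of 1 TPM (-0.10). It was about the same as that of the median gene with no filter (-0.05). The folds of IFN-beta over mock were 1.04 for GAPDH (interval 0.992 to 1.10, edgeR adjusted p 0.163) and 1.03 for PGK1 (0.984 to 1.08, 0.279), and neither passed. Both directions turned under library size alone (-0.03 and -0.05) and on log2(TPM + 1) (-0.05 and -0.07). GAPDH was called higher without mock replicate 3 (log2 fold change 0.09, edgeR adjusted p 0.0297). The reference gives the identifier of PGK1 the name PGK2, with PGK1 as a synonym.

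LDHA, the lactate dehydrogenase subunit that predominates in glycolytic tissues, was at 9112, 8670 and 8584 TPM in mock and 8028, 7771 and 8104 TPM in IFN-beta. All IFN-beta libraries were lower in TPM, but in TMM-scaled counts the groups overlapped. The fold of IFN-beta over mock was 0.983 with an interval of 0.934 to 1.04, and it did not pass (edgeR adjusted p 0.607). LDHA was called lower under library size alone (log2 fold change -0.12, edgeR adjusted p 0.00704) and on log2(TPM + 1) (-0.14, limma adjusted p 0.00248). Relative to the median of the genes tested on each of those scales it was -0.02 and -0.04, and on log2(TPM + 1) with no filter -0.09. LDHA made up 81.5% ± 0.645 of the TPM of LDHA and LDHB in mock and 79.7% ± 0.465 in IFN-beta, and LDHB, the subunit of more oxidative tissues, rose with a log2 fold change of 0.14 (edgeR adjusted p 0.00481; not called under library size alone or on log2(TPM + 1)).

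**Figure D4:**
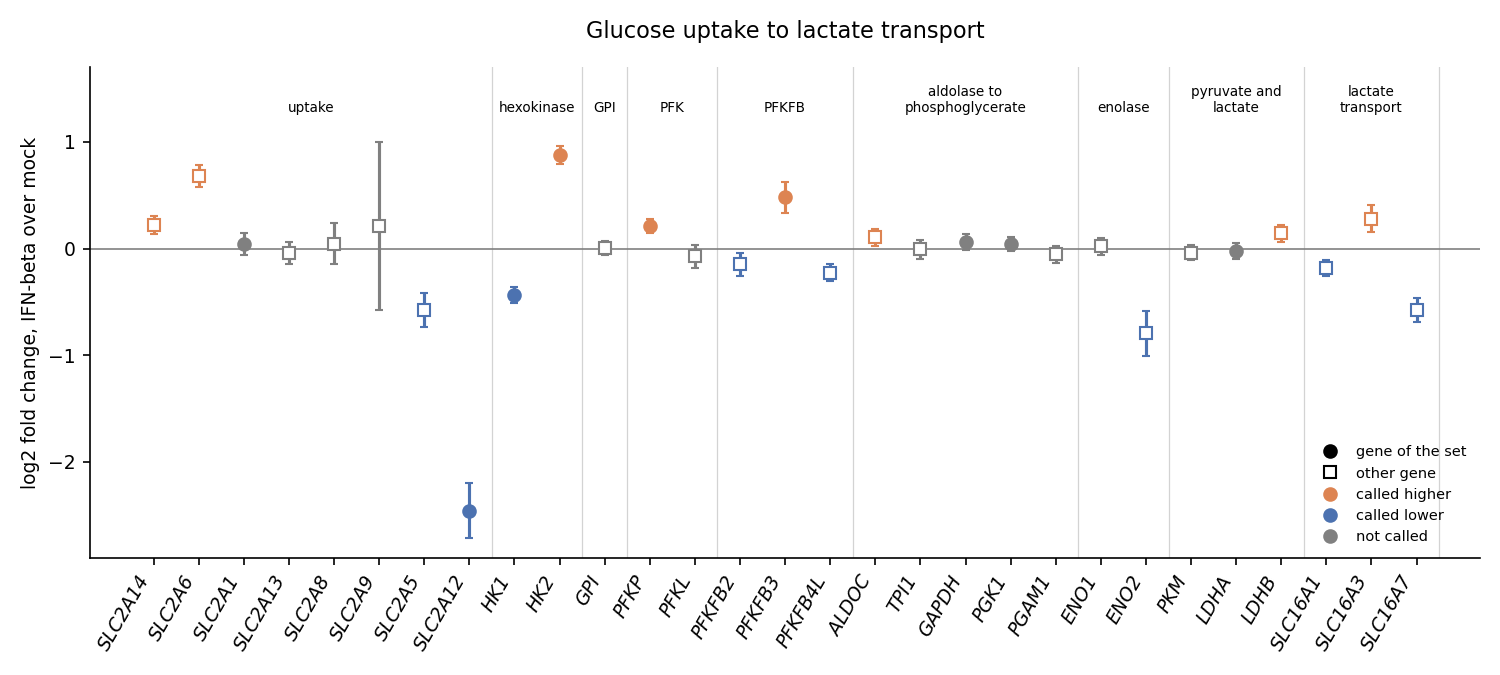
Log2 fold change of IFN-beta over mock with its 95% interval for genes from glucose uptake to lactate transport, in pathway order. Filled circles are the genes of the set and open squares other genes; orange was called higher, blue lower and grey not called. The called genes of the set lie in uptake, hexokinase, phosphofructokinase and PFKFB steps, and the grey points of GPI, TPI1, GAPDH, PGK1, PGAM1, ENO1, PKM and LDHA lie near 0, while ALDOC and LDHB are orange and ENO2 is blue.

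Among the other glycolytic enzymes 14 of 18 genes found were tested, of which 4 rose, 2 fell and 8 did not pass, with a median log2 fold change of -0.02. With library size as the only scaling these were 2 higher and 8 lower, at a median of -0.12, and log2(TPM + 1) gave none higher and 10 lower, at -0.14. GPI, TPI1, PGAM1, ENO1 and PKM, named after their values were seen, had log2 fold changes between -0.06 and 0.02 and were not called. The reference gives the identifier of PKM the name PKLR. ALDOC, an aldolase gene at 1610 ± 53.96 and 1601 ± 34.9 TPM, was called higher (0.11, edgeR adjusted p 0.0280), as was LDHB. However, ALDOC was not called under library size alone (0.01) and its sign turned on log2(TPM + 1) (-0.01). It was also not called without mock replicate 1 (edgeR adjusted p 0.158) or 2 (0.102) or without IFN-beta replicate 2 (0.120) or 3 (0.0566). ENO2, the neuronal enolase gene, fell from 10.1 ± 0.827 to 5.42 ± 0.453 TPM (-0.80, edgeR adjusted p 2.1e-06), and BPGM, which diverts an intermediate to bisphosphoglycerate, fell from 20.6 ± 1.37 to 16.02 ± 0.822 TPM (-0.25). ADPGK, a kinase that uses ADP to phosphorylate glucose, rose from 24.3 ± 0.920 to 27.2 ± 1.91 TPM (0.28), and PGM2, a phosphoglucomutase, rose from 58.1 ± 1.64 to 61.7 ± 1.34 TPM (0.22). Neither of these increases was called on log2(TPM + 1), with limma adjusted p of 0.0526 for ADPGK and 0.117 for PGM2.

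Genes that handle lactate and pyruvate moved in both directions, as did all genes tested, of which 24.3% were called higher and 22.4% lower. Of 17 tested, 4 rose, 5 fell and 8 did not pass (median -0.02), against 1 and 8 under library size alone (-0.11) and none and 9 on log2(TPM + 1) (-0.13). DESeq2 called 3 higher and 3 lower. PDK4, a kinase that keeps pyruvate out of the citric acid cycle, fell from 8.56 ± 0.721 to 2.86 ± 0.324 TPM (log2 fold change -1.46, edgeR adjusted p 1.5e-10). Among the carriers of lactate, SLC16A1 fell from 210 ± 8.83 to 171 ± 10.4 TPM (-0.18) and SLC16A7 from 5.46 ± 0.260 to 3.36 ± 0.0866 TPM (-0.58). SLC16A3, the carrier of glycolytic cells, rose from 17.7 ± 0.729 to 19.8 ± 1.22 TPM (0.28), but was not called on log2(TPM + 1) (limma adjusted p 0.0555).

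In the list of gluconeogenesis and fructose bisphosphate control, 1 of 9 tested genes rose, 4 fell and 4 did not pass (median -0.15), against 1 and 5 under library size alone (median -0.24). Those that fell were 2 by DESeq2 and 2 without IFN-beta replicate 3. TIGAR, a phosphatase that lowers phosphofructokinase activity, rose from 27.1 ± 0.467 to 30.03 ± 0.924 TPM (log2 fold change 0.24). FBP1, the enzyme that reverses the phosphofructokinase step, fell from 38.97 ± 1.90 to 30.8 ± 0.830 TPM (-0.23), and was not called without mock replicate 2 (edgeR adjusted p 0.0528). SLC37A4, the carrier of glucose phosphate into the endoplasmic reticulum, fell from 21.1 ± 0.416 to 15.3 ± 0.659 TPM (-0.34). G6PC2, a glucose phosphatase gene, fell from 2.54 ± 0.429 to 1.46 ± 0.375 TPM (-0.69, edgeR adjusted p 0.0102), but was not called by DESeq2 (adjusted p 0.0637) or without IFN-beta replicate 2 (0.0584) or 3 (0.0502).

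Of the glycogen genes 13 were tested, and none was called higher. Of the 13, 6 fell and 7 did not pass (median -0.12), and 10 fell under library size alone (-0.21) and on log2(TPM + 1) (-0.23). With the replicate number as a block, or without mock replicate 3, 1 of them was called higher. PYGB, a glycogen phosphorylase, fell from 29.5 ± 1.44 to 15.1 ± 0.896 TPM (log2 fold change -0.86, edgeR adjusted p 9.1e-11), UGP2, which makes the sugar donor for glycogen, fell from 93.0 ± 2.45 to 68.1 ± 0.419 TPM (-0.34), and PHKA2, a phosphorylase kinase subunit, fell by 0.45 on the log2 scale. In the pentose phosphate list, which holds the enzymes that make NADPH and ribose from glucose, 2 of 8 tested genes rose, 1 fell and 5 did not pass (median -0.04), against 1 and 5 under library size alone (-0.13). H6PD, the endoplasmic reticulum enzyme of the first steps, fell from 7.59 ± 0.650 to 3.55 ± 0.430 TPM (-0.98, edgeR adjusted p 6.4e-09). TALDO1, the transaldolase, rose from 682 ± 3.51 to 734 ± 19.99 TPM (0.22), and TKT, the transketolase, was called higher (0.12) but not under library size alone (0.03, edgeR adjusted p 0.401). The reference names the identifier of TKT TKTL1.

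Regulators known to act on glycolysis genes were also examined. Of 14 tested, 6 rose, 3 fell and 5 did not pass (median 0.06), against 4 and 6 under library size alone (-0.03) and 4 and 5 on log2(TPM + 1) (-0.06). HIF1A, the oxygen-regulated factor that activates SLC2A1, HK2, PGK1 and LDHA in mammals, rose from 41.8 ± 2.33 to 55.03 ± 2.89 TPM (log2 fold change 0.52, edgeR adjusted p 1.2e-09). EGLN3, a hydroxylase that marks HIF1A for destruction, rose from 11.3 ± 1.69 to 18.2 ± 1.11 TPM (0.81), MXI1, an antagonist of MYC, from 23.4 ± 1.64 to 38.5 ± 1.84 TPM (0.83) and FOXO3, a stress-responsive factor, from 4.22 ± 0.240 to 6.42 ± 0.352 TPM (0.72). MYC, named after its values were seen, was at 1798 ± 134 and 1670 ± 96.3 TPM and was not called. HD11 cells also carry the viral v-myc, and whether reads of v-myc were counted as MYC was not tested. Of 10 tested genes that respond to low oxygen outside glycolysis, 2 rose, 3 fell and 5 did not pass (median -0.08), against 1 and 5 under library size alone (-0.17), and 1 rose without IFN-beta replicate 2. ADM, the peptide hormone adrenomedullin, rose from 1.23 ± 0.265 to 24.3 ± 1.45 TPM (4.40, edgeR adjusted p 9.1e-16). DDIT4, an inhibitor of the growth kinase mTOR, fell from 83.9 ± 5.66 to 49.5 ± 3.75 TPM (-0.65), BNIP3, a mitophagy receptor, from 86.8 ± 1.87 to 64.7 ± 2.63 TPM (-0.31), and P4HA2, a collagen hydroxylase subunit, from 9.76 ± 0.815 to 6.88 ± 0.659 TPM (-0.39).

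**Figure D5:**
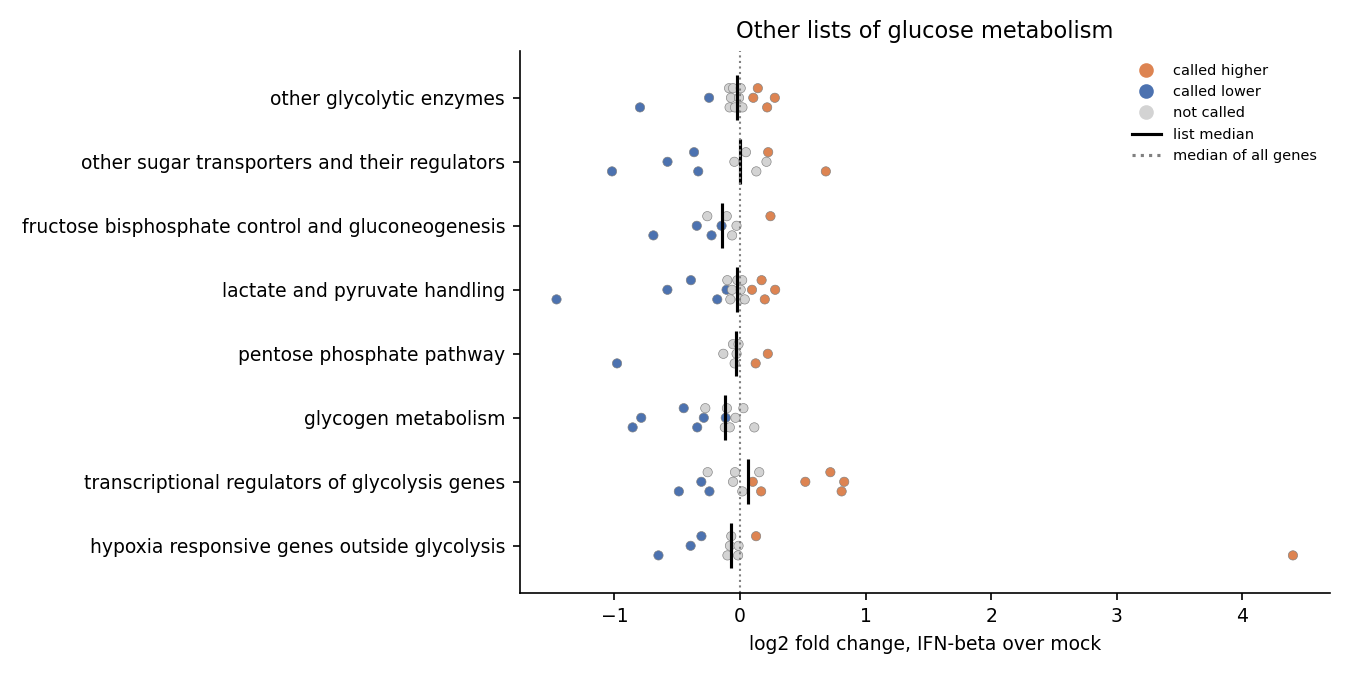
Log2 fold change of IFN-beta over mock for each tested gene of 8 other lists of glucose metabolism and its regulators, coloured by call, with a black bar at the list median and a dotted line at the median of all genes. List medians run from -0.15 to 0.06, and the point farthest to the right is ADM.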

How the data were processed

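Libraries were grouped and numbered by their titles. The authors deposited expected counts per gene (2322 of 14903 genes, HK1, PFKFB3 and LDHA among them, hold a fractional value), TPM for the same genes, and the log2 fold changes, p-values and q-values of their own comparison, from which nothing is printed. The build was GRCg6a and DESeq2 was used, per the submitters' processing notes; aligner, counter, annotation and strand setting: not given in the sources used here. Reads of overlapping genes or close copies may have been divided among them, as those of PFKFB3 and RBM17 were.

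Rounded counts went into edgeR 4.0.16 in R 4.3.3. The function filterByExpr left 11091 genes, TMM factors ran from 0.963 to 1.04, and the quasi-likelihood model had the group as its only term. P-values were adjusted by the Benjamini-Hochberg method over the genes tested. CPM are counts scaled to effective library size. Each SE is approximate, the log2 fold change divided by the root of its F statistic, and the 95% intervals rest on it. The labels call the 3 libraries of a group independent biological replicates; pairs of them had a chi-square of 1.67 to 4.48 per degree of freedom, above counting noise. Since an exact test on 3 against 3 libraries cannot reach below p = 0.1, none was run. Shares of TPM within families have no test.

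The members and the lists were chosen with earlier results of these data known. The text names the 10 members, up to 4 called genes with the smallest adjusted p from each of 8 lists, and OASL, IFIT5 and MX1 as treatment checks, of which OASL is shown. Some genes that this rule or these families would include are not reported here. The lists had 128 entries, of which 111 were found and 17 were not matched. Gene names and gene order came from RefSeq's GRCg7b table; its build differs from that of the files and no coordinate is printed. The scripts were tested on simulated data. Other settings were library size alone, upper quartile scaling, the size factors of DESeq2 put into edgeR, DESeq2 1.42.0 itself, no low-count filter, a minimum mean of 1 CPM, a replicate block, edgeR's glmTreat at 1.5-fold, limma 3.58.1 on log2(TPM + 1) and log2(TPM + 0.1) above a mean of 1 TPM, log2(TPM + 1) unfiltered, and each library left out in turn. Outlying libraries were not sought, with 3 a group.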

Additional observations from a re-analysis of the deposited data

How the results depend on the processing

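Members called higher numbered 3 and called lower 2 under TMM. Against a 1.5-fold change 1 was higher and 1 lower. Leaving out 1 library gave 3 to 4 higher and 2 to 2 lower, since GAPDH was called without mock replicate 3. Of 153 values of the 9 tested members under alternatives, 130 kept direction and side of the threshold. SLC2A12 and HK2 were called under all 17 alternatives, and HK1, PFKP and PFKFB3 under all but the test against 1.5-fold. Scaling turned SLC2A1 to -0.016 under upper quartile factors, -0.048 under library size alone, -0.070 on log2(TPM + 1) with or without its filter and -0.072 on log2(TPM + 0.1). It turned GAPDH to -0.031 under library size alone and -0.052 on each of the 3 TPM scales, and PGK1 to -0.016, -0.048 and, on the TPM scales, -0.070. These scalings moved the median of all genes by -0.05 to -0.11.

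Over all genes, 2697 were called higher and 2480 lower. Counts were 1734 and 4008 under library size alone, 2020 and 3356 under upper quartile factors, 416 and 246 against 1.5-fold, 1376 and 3823 on log2(TPM + 1), 1377 and 3815 on log2(TPM + 0.1), and 1395 and 3582 on log2(TPM + 1) with no filter. Without 1 library they were 2338 to 2808 and 2005 to 2622. Over the 8 other lists together, 21 were higher and 28 lower, against 13 and 41 under upper quartile factors, 12 and 52 under library size alone, 3 and 4 against 1.5-fold, 9 and 55 on both log2(TPM + 1) and log2(TPM + 0.1) and 9 and 48 on log2(TPM + 1) with no filter, and 17 to 23 and 25 to 31 without 1 library. The cause of differences between tools and units was not tested.

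Same-numbered mock and IFN-beta libraries shared little beyond the number (correlation of deviations 0.0831, 0.0755 and 0.0675), although each correlated best with its own number, a hint from the data and not the design. With the number as a replicate block 4 members were called higher and 2 lower, the added one being GAPDH (log2 fold change 0.06, edgeR adjusted p 0.0264), and 3077 and 2792 of all genes. The alternatives for PFKFB4L were chosen after seeing the data, and it was called lower in 16 of 17. Depth limits PFKFB4, HK3, HKDC1 and PFKM, which the filter on low counts removed; with no filter edgeR called none of them (adjusted p 0.254, 0.638, 0.837 and 0.642). PFKM passed the filter in some fits without 1 library and was called higher without mock replicate 3 (adjusted p 0.0290).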
